A study of Mus musculus with 36 samples.

Results

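The genes described here encode proteins of the complement, blood coagulation and kallikrein-kinin systems. The list holds 42 mouse gene symbols, and a gene counted as measured where a probe other than a control probe carried exactly that symbol. Of the 42 symbols, 41 were measured, and all 41 passed the filter on dim probes, among 24251 genes tested out of 37325 genes with a probe. No probe carried the symbol C1s, which was not analysed here. Each gene was represented by the probe with the highest mean signal over all arrays. All 41 of these probes were well above background on all 6 arrays of every group.

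Liver RNA was measured on 36 single-colour Agilent arrays, 6 for each of 6 groups. CTRL fed, CTRL fasted and CTRL CL316243 are livers of control mice that were fed freely, left without food for 24 h, or treated with CL316243, which activates the adrenergic receptor of adipocytes (beta 3). AAKO fed, AAKO fasted and AAKO CL316243 are the same conditions in mice lacking adipose triglyceride lipase (ATGL), the enzyme that starts triglyceride breakdown, in white adipose tissue. All mice were males on a C57Bl/6J background, killed at Zeitgeber time 16, and the dose was 3 mg/kg by gavage at Zeitgeber time 10. A gavage is described for the agonist groups only. The fed groups belong to experiment 2 and the other groups to experiment 1, so in any comparison with fed mice the condition and the experiment cannot be told apart. The promoter or Cre line behind the deletion, the age of the mice and any pooling are not given in the sources used here. The design asks how the response of the liver to fasting and to the agonist depends on fat breakdown in adipose tissue.

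Complement is a cascade of plasma proteins that marks and lyses microbes. It is started by antibody complexes (classical pathway), by sugars on microbial surfaces (lectin pathway) or on C3 itself (alternative pathway), and all routes meet at C3 and end in a membrane pore. Coagulation is a parallel protease cascade that ends when thrombin turns fibrinogen into fibrin, and it is held in check by antithrombin, protein C and protein S, while plasmin dissolves the clot. In the contact system, factor XII activates plasma prekallikrein, and plasma kallikrein cuts kininogen to release the vasoactive peptide bradykinin. Hepatocytes make most of these proteins, and several of them belong to the acute phase response, in which inflammatory cytokines raise the output of certain plasma proteins.

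Levels are given on a log2 scale after each array was set to its own 75th percentile, so that a level of 0 is the brightness of that percentile. A level depends on the probe as well as on the RNA, and levels of different genes are not compared. A gene is said to be called, or to be higher, lower, raised or reduced, where its adjusted p in limma was under 0.05. Of the hepatocyte markers, all 10 were measured, with array means between 8.32 and 8.89. In whole liver, fewer cells of a type and less RNA per cell cannot be told apart. The labels number the samples within groups but do not describe separate cultures or cages. The p-values and standard errors rest on the spread between samples within groups, in an estimate per gene that all 6 groups share. They do not follow the spread of the compared groups alone.

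The number of members called between genotypes was lowest in fed livers. In fed livers 2 of the 41 were called, both higher in AAKO (Kng2 and Kng1), against 0.0783% of all genes tested (0.0412% higher, 0.0371% lower). In fasted livers 21 were called, 5 higher and 16 lower in AAKO. Of all genes, 49.2% were called there, 22% higher and 27.2% lower. After CL316243, 10 were called, 7 higher and 3 lower, against 24.5% of all genes, 12.9% higher and 11.6% lower. The share of members called was near that of all genes in the fasted (51.2%) and CL316243 (24.4%) comparisons. The median log2 fold change of the 41 genes, AAKO over CTRL, was 0.1 in fed, -0.13 in fasted and 0.06 in CL316243 livers, beside medians of all genes of 0, -0.03 and 0.03.

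**Figure D1:**
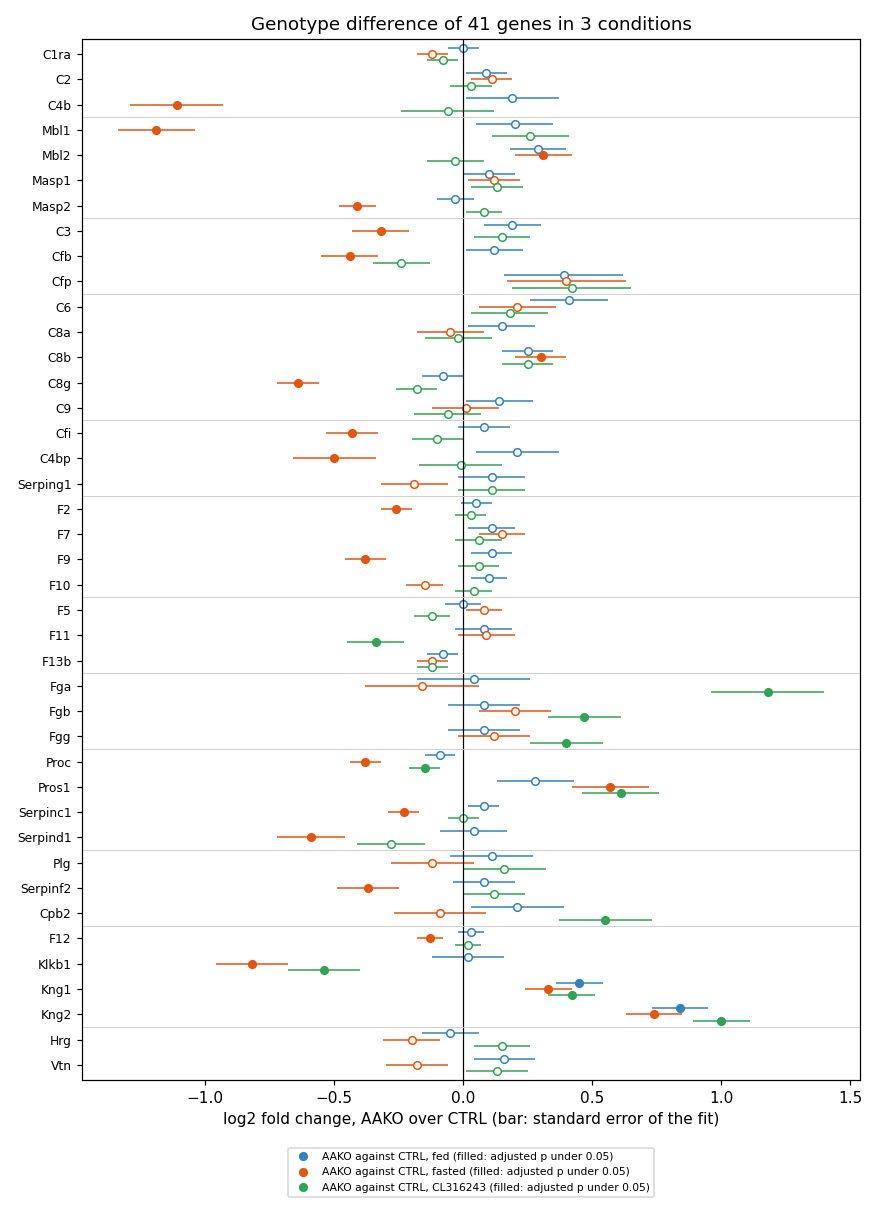
Genotype difference (log2 fold change, AAKO over CTRL, horizontal axis) of the 41 genes (vertical axis, grouped by role) in fed, fasted and CL316243 livers, with 6 arrays per group. Bars are standard errors of the fit and filled points have an adjusted p under 0.05; Kng2 and Kng1 are filled in all 3 conditions, and Mbl1 lies furthest left at -1.19 in fasted livers.

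The change of the genotype difference with condition was tested directly. Between fasted and fed livers it differed for 15 of the 41 genes, all 15 towards lower levels in AAKO fasted livers, against 33.6% of all genes, with 18.6% in that direction and 15.1% in the other. Between CL316243 and fed livers it differed for 1 gene, the fibrinogen gene Fga, against 10.8% of all genes (6.2% higher, 4.64% lower). Between fasted and CL316243 livers, which lie within 1 experiment, it differed for 13 genes, 12 of them lower in fasted AAKO livers, against 31.8% of all genes, with 18.5% in that direction and 13.4% in the other. The exception in that comparison was F11, at 0.43 ± 0.15 (SE, limma adjusted p = 0.0296).

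The kininogens were higher in AAKO livers in all 3 conditions. Kng1 and Kng2 encode kininogens, the precursors of bradykinin, and their probes lie 84.4 kb apart on chromosome 16 (mm9). In fed livers the Kng2 level was between 6.56 and 7.07 (median 6.79) in CTRL and between 7.57 and 7.83 (median 7.6) in AAKO. No array of one genotype reached the range of the other. The difference was 0.84 ± 0.11 on the log2 scale (SE, n = 6 against 6, limma adjusted p = 0.00016), or 1.79-fold. By unadjusted p, Kng2 ranked 2 and Kng1 ranked 11 among the 19 genes called in fed livers.

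In fasted livers Kng2 ran from 6.56 to 7.14 (median 6.72) in CTRL and from 7.2 to 7.8 (median 7.5) in AAKO, a difference of 0.74 ± 0.11 (limma adjusted p = 1.52e-06). After CL316243 it ran from 6.51 to 7.23 (median 6.86) in CTRL and from 7.72 to 8.13 (median 7.82) in AAKO, a difference of 1 ± 0.11 (limma adjusted p = 7.11e-08), or 2-fold. The groups again did not overlap in either condition. The CTRL level of Kng2 was not called between any 2 conditions, and in AAKO it was lower by 0.36 ± 0.11 in fasted than in CL316243 livers (limma adjusted p = 0.00642). The genotype difference of Kng2 was not called as different between conditions: fasted minus fed was -0.1 (95% confidence interval -0.42 to 0.22), CL316243 minus fed was 0.15 (-0.17 to 0.47), and fasted minus CL316243 was -0.26 (-0.58 to 0.07).

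Kng1 moved in the same direction and by less on its brightest probe. Its fed level was between 9.55 and 9.92 (median 9.72) in CTRL and between 10.04 and 10.32 (median 10.19) in AAKO, without overlap, a difference of 0.45 ± 0.09 (limma adjusted p = 0.0183). In fasted livers the difference was 0.33 ± 0.09 (limma adjusted p = 0.00186), with CTRL between 9.45 and 9.98 and AAKO between 9.95 and 10.15. After CL316243 it was 0.42 ± 0.09 (limma adjusted p = 0.000471), with CTRL between 9.59 and 10.33 and AAKO between 10.26 and 10.4. In both of these conditions the highest CTRL array, replicate 5, entered the AAKO range. Both dimmer Kng1 probes differed more than the brightest one, by 0.84 and 0.81 in fed, 0.63 and 0.75 in fasted and 0.82 and 0.87 in CL316243 livers. Kng1 and Kng2 are close paralogs, and cross-hybridisation between their probes was not tested.

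The fed call of Kng1 was lost in 9 of 27 alternative fits, among them the fits without CTRL fed replicate 1, 3 or 5 or without AAKO fed replicate 1 or 6. Within wash batch 1 and wash batch 2 the fed difference was 0.81 and 0.88 for Kng2 and 0.42 and 0.48 for Kng1, and none of these was called. The fasted and CL316243 calls of Kng2 were kept in all 27 alternatives, though its fasted difference was 0.44 within wash batch 1 and 1.05 within wash batch 2. The Kng1 calls in fasted and CL316243 livers were lost within wash batch 1, where the differences were 0.18 and 0.28 (limma adjusted p = 0.244 and 0.103).

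Genes beside the kininogens were not called between genotypes in fed livers. Hrg encodes histidine-rich glycoprotein, a plasma protein that binds heparin and plasminogen, and its probe lies 35.9 kb from that of Kng2. Hrg was called in none of the 12 comparisons, and its genotype difference was -0.05 ± 0.11 in fed, -0.2 ± 0.11 in fasted and 0.15 ± 0.11 in CL316243 livers. Around the kininogens, 13 other genes were measured within 8 places before and 9 after Kng2 in the RefSeq gene order, Hrg and Masp1 included. Of these, 0 were called between genotypes in fed livers, where 0.0783% of all genes were called. The fed count was thus near that share. Their fed log2 fold changes ran from -0.08 to 0.5. In fasted and in CL316243 livers 7 of the 13 were called, with changes of either sign, where 49.2% and 24.5% of all genes were called. Eif4a2, which encodes an RNA helicase of translation initiation, lies next to Kng1 and was named after its values were seen. Its genotype difference was 0.47 ± 0.13 in fed livers (limma adjusted p = 0.28), 0.58 ± 0.13 in fasted livers (limma adjusted p = 0.000409) and 0.44 ± 0.13 in CL316243 livers (limma adjusted p = 0.014), in the same direction as Kng1 in all 3 conditions. Rfc4, the gene after Eif4a2, differed by 0.39 ± 0.11 in fed livers (limma adjusted p = 0.247) and -0.2 ± 0.11 in fasted livers (limma adjusted p = 0.125). After CL316243 it differed by 0.39 ± 0.11 (limma adjusted p = 0.00623).

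**Figure D2:**
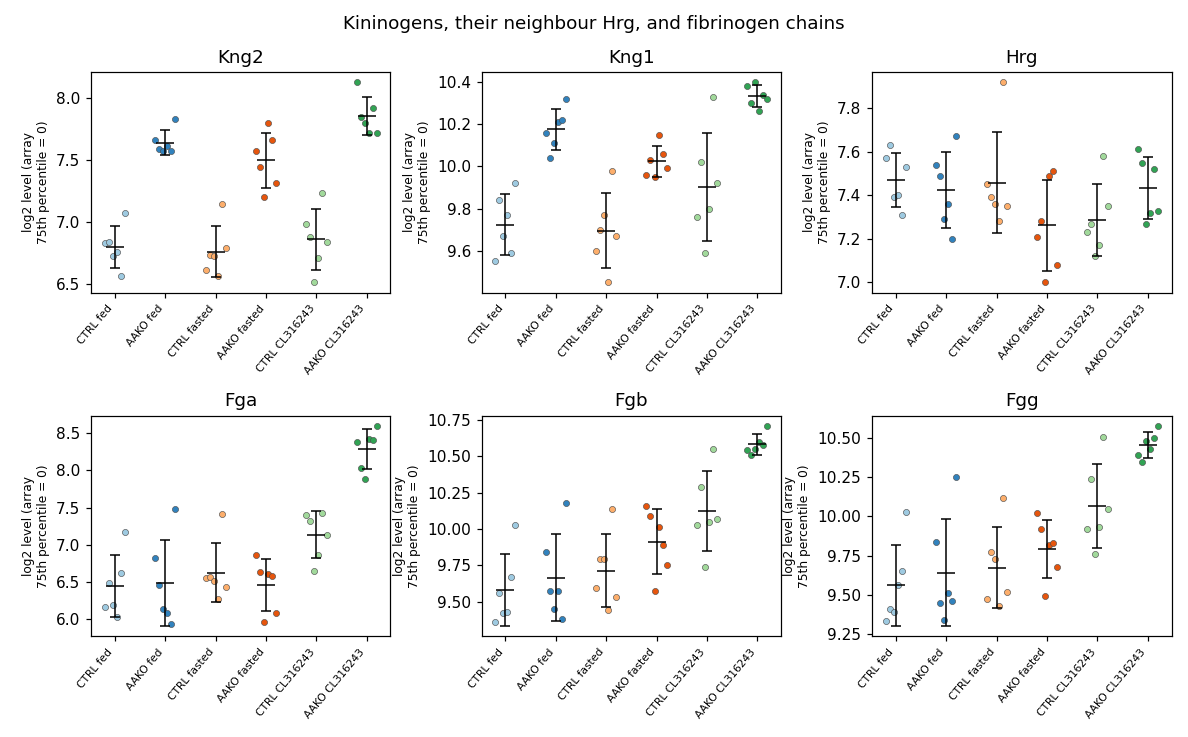
Level (log2, scaled to each array's 75th percentile, vertical axis) of Kng2, Kng1, Hrg, Fga, Fgb and Fgg in the 6 groups; each point is 1 of 6 arrays, and black bars give the mean and SD. The AAKO points of Kng2 lie above all CTRL points in each condition, and the AAKO CL316243 points of Fga, from 7.88 to 8.6, lie above all other arrays.

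Klkb1 was lower in AAKO than in CTRL livers in the fasted and the CL316243 condition. Klkb1 encodes plasma prekallikrein, which once activated frees bradykinin from kininogen. Its level in fasted livers was between 3.86 and 5.05 (median 4.75) in CTRL and between 3.54 and 4.28 (median 3.72) in AAKO, and the groups overlapped through CTRL replicate 2. The difference was -0.82 ± 0.14 (limma adjusted p = 1.46e-05), or 1.76-fold lower in AAKO. After CL316243, CTRL lay between 5.58 and 5.68 and AAKO between 4.89 and 5.33, with no overlap and a difference of -0.54 ± 0.14 (limma adjusted p = 0.00502). In fed livers the difference was 0.02 ± 0.14. The fasted difference of Klkb1 was -1.24 within wash batch 1 and -0.4 within wash batch 2, where it was not called. F12, which encodes coagulation factor XII, the activator of prekallikrein, was lower by 0.13 ± 0.05 in fasted AAKO livers (limma adjusted p = 0.0219), a call lost in 9 of 27 alternatives. F11, which encodes factor XI, another protease that circulates bound to kininogen, was lower by 0.34 ± 0.11 in AAKO after CL316243 (limma adjusted p = 0.0204).

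Sequences upstream of the 3 fibrinogen genes are shown because all 3 were higher after CL316243 than in fed livers. That of Kng2 is shown because Fga and Kng2 had the highest genotype differences after CL316243. The 250 bases upstream of the annotated start are given 5′ to 3′ on the strand of the gene, from RefSeq on GRCm38.p6, for Fgg at chr3:83007474-83007723 (plus strand), Fga at chr3:83025903-83026152 (plus strand), Fgb at chr3:83049864-83050113 (minus strand) and Kng2 at chr16:23029102-23029351 (minus strand). Capitals mark matches to TTCNNNGAA, the palindromic core bound by STAT3, the mediator of interleukin 6 signals, or to TTGCNNAA on either strand, a core pattern of C/EBP factors.
Fgg: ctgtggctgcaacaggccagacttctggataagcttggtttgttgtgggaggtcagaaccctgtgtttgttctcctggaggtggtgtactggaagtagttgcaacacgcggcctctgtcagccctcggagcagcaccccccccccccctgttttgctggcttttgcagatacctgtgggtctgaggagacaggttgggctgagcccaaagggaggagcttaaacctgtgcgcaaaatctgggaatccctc
Fga: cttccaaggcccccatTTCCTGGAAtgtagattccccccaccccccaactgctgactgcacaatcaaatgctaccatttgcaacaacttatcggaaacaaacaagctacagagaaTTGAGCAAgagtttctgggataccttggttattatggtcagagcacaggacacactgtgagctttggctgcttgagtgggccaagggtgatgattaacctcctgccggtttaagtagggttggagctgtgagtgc
Fgb: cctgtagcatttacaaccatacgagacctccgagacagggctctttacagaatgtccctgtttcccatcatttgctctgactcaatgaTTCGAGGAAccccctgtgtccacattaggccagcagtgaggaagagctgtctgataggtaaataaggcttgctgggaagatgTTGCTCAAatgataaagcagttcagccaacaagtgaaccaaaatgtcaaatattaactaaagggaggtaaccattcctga
Kng2: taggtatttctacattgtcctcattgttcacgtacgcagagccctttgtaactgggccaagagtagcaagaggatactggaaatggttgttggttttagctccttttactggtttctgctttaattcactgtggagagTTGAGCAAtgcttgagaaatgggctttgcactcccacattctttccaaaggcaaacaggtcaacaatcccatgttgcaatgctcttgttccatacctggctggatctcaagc

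In these windows the first base of the TTCNNNGAA match lay at -234 in Fga and at -162 in Fgb, and that of the TTGCNNAA match at -135 in Fga, -80 in Fgb and -112 in Kng2, counted from the start. Fgg had no match to either. A promoter was listed for 32 of the members, of which 6 held TTCNNNGAA and 9 held TTGCNNAA, beside 7.02% and 9.56% of 32851 promoters of the same length. The HNF1-type pattern searched was in 2 of the 32 (C4bp and F13b) and in 0.371% of all, and CAAAGTCCA, an HNF4-type pattern, in 0 of the 32 and in 0.384% of all. Both strands were searched, and a match describes letters only. The 3 fibrinogen genes lie side by side on chromosome 3, where the Fga probe is 16.9 kb from that of Fgg and 10.7 kb from that of Fgb (mm9).

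Fibrinogen genes were higher after CL316243 than in fed livers of both genotypes, and Fga more so in AAKO livers. Fga, Fgb and Fgg encode the alpha, beta and gamma chains of fibrinogen, the precursor of fibrin. The Fga level ran from 6.03 to 7.17 (median 6.34) in CTRL fed livers and from 6.65 to 7.43 (median 7.23) in CTRL CL316243 livers, which overlapped. In AAKO it ran from 5.94 to 7.48 (median 6.3) in fed and from 7.88 to 8.6 (median 8.39) in CL316243 livers, which did not overlap.

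Against fed livers, Fga was higher after CL316243 by 0.69 ± 0.22 in CTRL (limma adjusted p = 0.0222) and by 1.83 ± 0.22 in AAKO (limma adjusted p = 1.77e-07), or 3.55-fold. The CTRL call of Fga was lost in 7 of 27 alternatives: within wash batch 2 (0.41), with slide as a fixed factor (0.63), with the mean of probes (0.72), and without CTRL fed replicate 1 (0.61) or 4 (0.62) or CTRL CL316243 replicate 2 (0.63) or 5 (0.61). The difference between these responses was 1.14 ± 0.31 (95% confidence interval 0.5 to 1.78, limma adjusted p = 0.0152). Within the CL316243 condition AAKO exceeded CTRL by 1.18 ± 0.22 (limma adjusted p = 0.000157), and all 6 AAKO arrays lay above all 6 CTRL arrays. The dimmer Fga probe gave 1.33 for the same comparison. The Fga response difference was lost within each wash batch and with the mean of all probes.

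Fgb rose after CL316243 by 0.54 ± 0.14 in CTRL (limma adjusted p = 0.00443) and by 0.93 ± 0.14 in AAKO (limma adjusted p = 4.67e-06), and Fgg by 0.51 ± 0.14 (limma adjusted p = 0.00868) and 0.82 ± 0.14 (limma adjusted p = 3.78e-05). After CL316243 the AAKO level of Fgb lay between 10.51 and 10.71 and the CTRL level between 9.74 and 10.55, so that only CTRL replicate 5 reached the AAKO range. Their genotype differences after CL316243 were 0.47 ± 0.14 for Fgb (limma adjusted p = 0.0118) and 0.4 ± 0.14 for Fgg (limma adjusted p = 0.0399), and the Fgg call was lost in 13 of 27 alternatives. Within wash batch 2 the CTRL rises were 0.25 for Fgb and 0.24 for Fgg and were not called. For neither gene was the response called as different between genotypes (0.39 ± 0.2 for Fgb and 0.31 ± 0.2 for Fgg).

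In fasted livers no fibrinogen gene was called between genotypes: the differences were -0.16 ± 0.22 for Fga, 0.2 ± 0.14 for Fgb and 0.12 ± 0.14 for Fgg. The probes of Fga disagreed there. The brighter one ran from 6.28 to 7.41 in CTRL and from 5.97 to 6.87 in AAKO, and the dimmer one from 3.81 to 4.81 and from 4.61 to 6.28, a difference of 1.06. Which of them follows the main Fga transcript was not tested.

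Acute phase genes moved with the fibrinogen genes in AAKO livers. Of 20 acute phase genes outside the 41, 12 were higher and 0 lower after CL316243 than in fed AAKO livers. Over all genes 15.5% were higher and 15.9% lower there. In CTRL 2 of the 20 were higher and 0 lower, beside 10.5% and 12.7% of all genes. The CTRL count of higher genes was thus near the share of all genes. The mean of the 20 ran from 4.88 to 6.99 in CTRL CL316243 livers and from 6.1 to 6.88 in AAKO CL316243 livers. In fed livers it ran from 4.28 to 5.95 and from 4.01 to 6.93. The part of this in the fibrinogen result was not tested.

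Mbl1, a lectin pathway gene, had the largest genotype difference of the 41 genes in fasted livers. Mbl1 and Mbl2 encode mannose-binding lectins, which recognise microbial sugars, and Masp1 and Masp2 encode the proteases bound to them. The Mbl1 level in fasted livers was between 3.87 and 4.61 (median 4.07) in CTRL and between 2.54 and 3.43 (median 2.93) in AAKO, with no overlap. The difference was -1.19 ± 0.15 (limma adjusted p = 1.15e-07), or 2.28-fold lower in AAKO, and it was called in all 27 alternatives. In fed livers it was 0.2 and after CL316243 0.26, neither called. The change of the Mbl1 genotype difference was -1.39 ± 0.22 from fed to fasted livers (limma adjusted p = 8.23e-06) and -1.44 ± 0.22 from CL316243 to fasted livers (limma adjusted p = 5.96e-06).

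Masp2 was also lower in AAKO fasted livers, with levels between 5.21 and 5.5 in CTRL and between 4.76 and 5.12 in AAKO fasted livers and a difference of -0.41 ± 0.07 (limma adjusted p = 7.21e-06). All 3 Masp2 probes gave values from -0.42 to -0.4. Mbl2 was higher in AAKO fasted livers, by 0.31 ± 0.11 (limma adjusted p = 0.0149), the opposite direction to Mbl1. Masp1 was not called between genotypes in any condition.

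**Figure D3:**
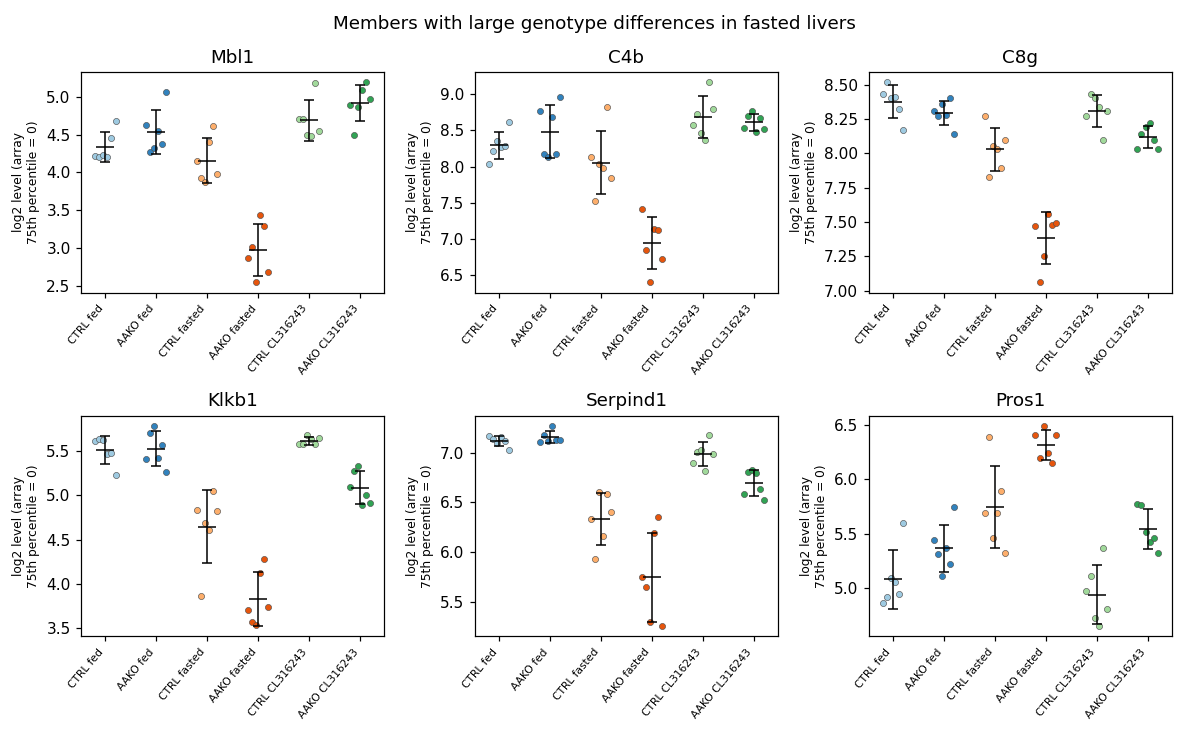
Level (log2, scaled to each array's 75th percentile, vertical axis) of Mbl1, C4b, C8g, Klkb1, Serpind1 and Pros1 in the 6 groups; each point is 1 of 6 arrays, and black bars give the mean and SD. AAKO fasted points of Mbl1, C4b and C8g lie below all other arrays, and those of Pros1, from 6.15 to 6.49, overlap the CTRL fasted group through 1 array.

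Among the classical pathway genes, C4b was lower in fasted AAKO livers and the others were not called. C4b encodes complement component 4, which is cut by C1s or by Masp2 to form the C3 convertase with C2. Its level ran from 7.53 to 8.82 (median 8.01) in CTRL fasted and from 6.4 to 7.42 (median 6.99) in AAKO fasted livers, without overlap. The difference was -1.11 ± 0.18 (limma adjusted p = 4.02e-06), or 2.16-fold lower, against 0.19 in fed and -0.06 in CL316243 livers. The second C4b probe gave -1.35. C4a, a near-identical copy of C4b that is not in the list, was lower by 1.2 ± 0.21 (limma adjusted p = 1.4e-05), and signal of the copies may not be separable. C1ra, a protease of the C1 complex, and C2 were not called between genotypes in any condition.

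C3 and factor B (Cfb), which form the alternative pathway convertase, were lower in fasted AAKO livers by 0.32 ± 0.11 (limma adjusted p = 0.0164) and 0.44 ± 0.11 (limma adjusted p = 0.0014). Their genotype groups overlapped. Properdin (Cfp), which stabilises that convertase and is made largely by myeloid cells, was not called, with differences of 0.39, 0.4 and 0.42 in fed, fasted and CL316243 livers.

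The terminal pathway genes encode the parts of the membrane pore. C8g, the gamma chain of C8, ran from 7.83 to 8.27 (median 8.04) in CTRL fasted and from 7.06 to 7.56 (median 7.48) in AAKO fasted livers. The groups did not overlap, and the difference of -0.64 ± 0.08 (limma adjusted p = 5.71e-08) was called in all 27 alternatives. C8b, the beta chain, was higher in AAKO fasted livers by 0.3 ± 0.1 (limma adjusted p = 0.0125). C6, C8a and C9 were not called between genotypes in any condition.

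Of the complement regulators, Cfi and C4bp were lower in fasted AAKO livers and Serping1 was not called. Cfi encodes factor I, the protease that inactivates C3b and C4b, and it differed by -0.43 ± 0.1 (limma adjusted p = 0.000432) with no overlap. C4bp encodes the alpha chain of the C4b-binding protein, the cofactor of factor I, and ran from 6.43 to 7.2 (median 6.6) in CTRL and from 5.72 to 6.72 (median 6.08) in AAKO, a difference of -0.5 ± 0.16 (limma adjusted p = 0.0108). The genotype groups overlapped. A dimmer C4bp probe ran from -3.82 to -0.11 in CTRL and from -7.61 to -4.41 in AAKO fasted livers, and was well above background on only 2 of those 6 AAKO arrays. Serping1 encodes the C1 inhibitor, which restrains both C1 and plasma kallikrein.

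Of the vitamin K dependent factors, F9 and F2 (factor IX and prothrombin) were lower in fasted AAKO livers, by 0.38 ± 0.08 (limma adjusted p = 0.000189) and 0.26 ± 0.06 (limma adjusted p = 0.000857), and neither overlapped. F9 moved in opposite directions with fasting in the 2 genotypes. It was higher in fasted than fed CTRL livers by 0.26 ± 0.08 (limma adjusted p = 0.00898) and lower in fasted than fed AAKO livers by 0.23 ± 0.08 (limma adjusted p = 0.011). The difference between these responses was -0.49 ± 0.11 (limma adjusted p = 0.000941). F7 and F10, factors VII and X, were not called between genotypes, and neither were F5, the cofactor factor V, or F13b, the carrier chain of factor XIII.

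The anticoagulant genes were all called between genotypes in fasted livers, 3 lower and 1 higher, against 49.2% of all genes (22% higher, 27.2% lower). Pros1 encodes protein S, the cofactor of activated protein C, and was the 1 raised in AAKO. Its level ran from 5.32 to 6.39 (median 5.69) in CTRL fasted and from 6.15 to 6.49 (median 6.32) in AAKO fasted livers. The groups overlapped through CTRL replicate 2, and the difference was 0.57 ± 0.15 (limma adjusted p = 0.0015). After CL316243 it ran from 4.65 to 5.37 (median 4.89) in CTRL and from 5.32 to 5.77 (median 5.48) in AAKO, a difference of 0.61 ± 0.15 (limma adjusted p = 0.00223), with overlap at 1 array. The Pros1 call after CL316243 was lost within wash batch 1 (0.53) and wash batch 2 (0.63), and with the mean of all its kept probes, where the difference was 0.19. A second Pros1 probe ran from 0.32 to 0.87 in CTRL and from 1 to 1.55 in AAKO, without overlap. The dimmest ran from -4.64 to -3.85 and from -5.8 to -4.18, and was well above background on only 2 of those 6 AAKO arrays.

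Proc, which encodes protein C, was lower in AAKO by 0.38 ± 0.06 in fasted livers (limma adjusted p = 1.85e-06) with no overlap, and by 0.15 ± 0.06 after CL316243 (limma adjusted p = 0.0491), a call lost in 17 of 27 alternatives. Serpind1 encodes heparin cofactor II, an inhibitor of thrombin. It ran from 5.93 to 6.61 (median 6.37) in CTRL fasted and from 5.26 to 6.35 (median 5.7) in AAKO fasted livers, with overlap and a difference of -0.59 ± 0.13 (limma adjusted p = 0.00034). That difference was -1.13 within wash batch 1 and -0.04 within wash batch 2. Serpinc1, which encodes antithrombin, was lower by 0.23 ± 0.06 (limma adjusted p = 0.00129).

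Within wash batch 2, 11 of the 41 genes were called between fasted genotypes, 5 higher and 6 lower, in place of 5 higher and 16 lower. The share of all genes called also fell, to 32.3% from 49.2%. C4bp (-0.93 and -0.08), Serpinf2 (-0.71 and -0.03) and Serpinc1 (-0.41 and -0.06) also had most of their difference within wash batch 1. In all, 7 members kept their fasted call in all 27 alternatives: Kng2, Proc, Mbl1, C8g, Masp2, F9 and C4b. Wash batch 1 holds CTRL fasted replicate 5 and AAKO fasted replicate 3, described further on. Among fasted arrays, these lay farthest from their group mean over the members. Their part in the difference between the batches was not tested.

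Of the fibrinolysis genes, Cpb2 was higher in AAKO after CL316243 and Serpinf2 was lower in AAKO fasted livers. Cpb2 encodes a carboxypeptidase that slows clot lysis. After CL316243 it ran from 7.11 to 8 (median 7.38) in CTRL and from 7.73 to 8.1 (median 7.99) in AAKO, with overlap, a difference of 0.55 ± 0.18 (limma adjusted p = 0.0206) that was not called within either wash batch. Serpinf2, which encodes the main plasmin inhibitor, was higher after CL316243 than in fed livers of both genotypes, by 0.6 ± 0.12 in CTRL (limma adjusted p = 0.000288) and 0.64 ± 0.12 in AAKO (limma adjusted p = 6.96e-05), and was lower by 0.37 ± 0.12 in AAKO than in CTRL fasted livers (limma adjusted p = 0.00829). Plg, which encodes plasminogen, was not called between genotypes on its brighter probe. Its dimmer probe was well above background on all fasted arrays. That probe ran from -2.92 to 0.11 (median -0.69) in CTRL fasted and from -3.71 to -1.43 (median -2.19) in AAKO fasted livers, with overlap. Vtn, which encodes the adhesive protein vitronectin, was not called between genotypes.

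Lower levels in fasted than in fed livers were called for 18 of the 41 genes in CTRL and 30 in AAKO. Against fed livers of the same genotype, 21 genes were called in CTRL, 3 higher and 18 lower, against 43.8% of all genes (19.8% higher, 24% lower). In AAKO 32 were called, 2 higher and 30 lower, against 63.6% of all genes (27.5% higher, 36.1% lower). The median log2 change was -0.23 in CTRL and -0.41 in AAKO, beside -0.05 and -0.1 over all genes. Groups did not overlap for 10 genes in CTRL and 27 in AAKO, beside 22.8% and 42.7% of all genes. These comparisons share no samples with each other, and each sets experiment 1 against experiment 2.

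Klkb1 was the member most reduced in both, by 0.87 ± 0.14 in CTRL (limma adjusted p = 7.5e-06) and 1.7 ± 0.14 in AAKO (limma adjusted p = 4.97e-12), or 3.25-fold in AAKO. Its fed levels ran from 5.23 to 5.64 in CTRL and from 5.27 to 5.79 in AAKO, above all fasted arrays of the same genotype. Serpind1 was lower by 0.78 ± 0.13 in CTRL (limma adjusted p = 9.11e-06) and 1.41 ± 0.13 in AAKO (limma adjusted p = 4.51e-11). F11 was lower by 0.82 ± 0.11 in CTRL (limma adjusted p = 2.19e-07) and 0.81 ± 0.11 in AAKO (limma adjusted p = 9e-08), almost equal changes.

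Of the terminal pathway genes all 5 were lower with fasting in both genotypes, where 24% (CTRL) and 36.1% (AAKO) of all genes were lower. Among them were C8b (-0.68 and -0.63), C8a (-0.62 and -0.82) and C9 (-0.54 and -0.66, CTRL and AAKO). Mbl1 (-1.56), C4b (-1.54), C4bp (-1.07) and C8g (-0.9) were among the 8 largest calls in AAKO. In CTRL, Mbl1 changed by -0.17, C4b by -0.24 and C4bp by -0.36, and none of these was called. Pros1 was raised with fasting, by 0.66 ± 0.15 in CTRL (limma adjusted p = 0.000378) and 0.95 ± 0.15 in AAKO (limma adjusted p = 9.88e-07). Cpb2 was lower by 0.5 ± 0.18 in CTRL (limma adjusted p = 0.0217).

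**Figure D4:**
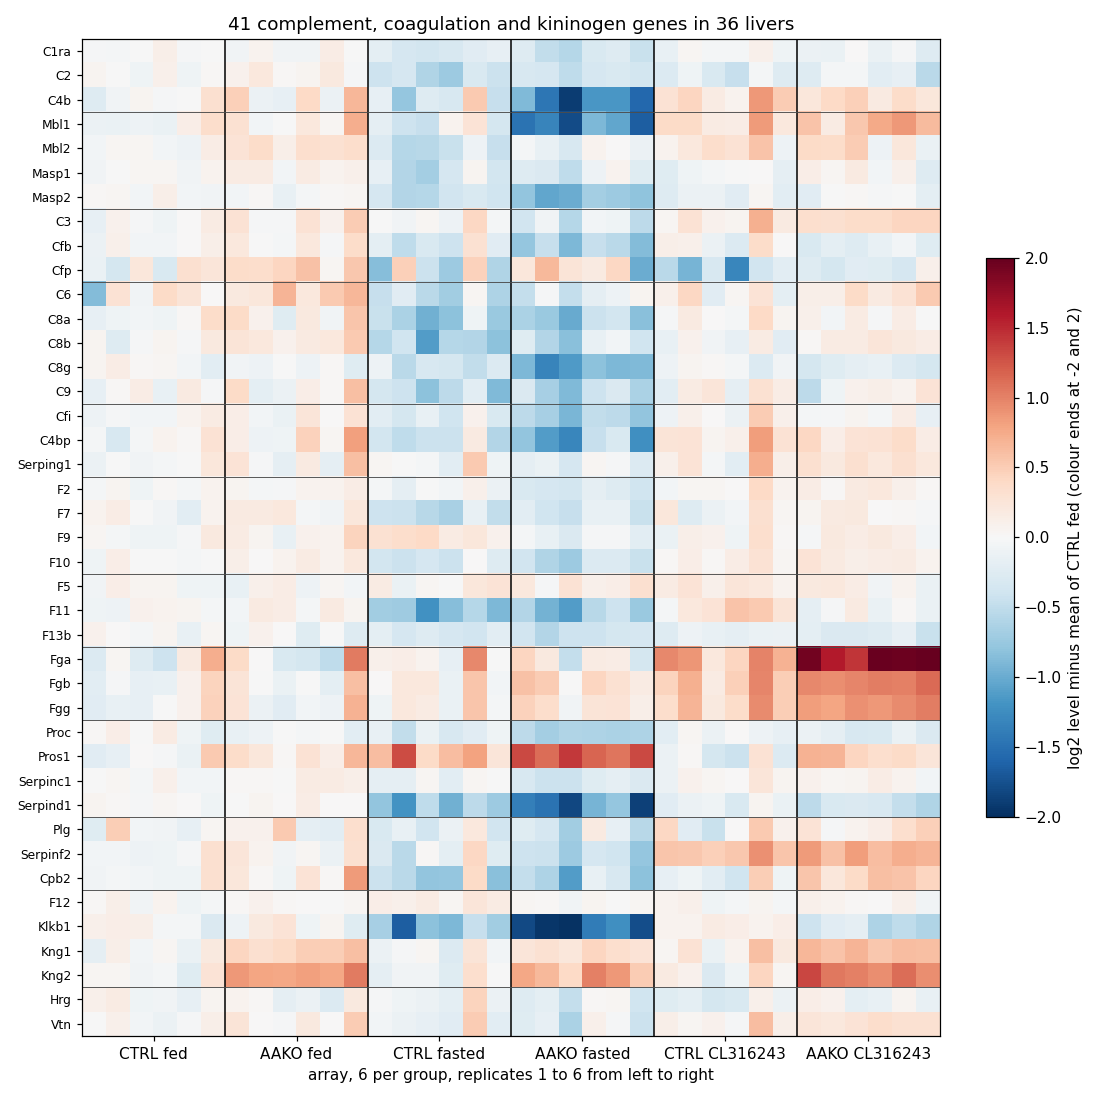
Log2 level of the 41 genes (rows, grouped by role) on each of 36 arrays (columns, 6 per group) minus the mean of CTRL fed livers; red is higher and blue is lower, with colours ending at -2 and 2. The AAKO fasted columns hold the most blue, with Mbl1, C4b, Klkb1 and Serpind1 lowest, and Kng2 is red in all 3 AAKO groups.

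Fewer members, and fewer of all genes, were called between CL316243 and fed livers than between fasted and fed livers. Agonist, gavage and experiment cannot be told apart in this comparison. Of the members, 17.1% were called in CTRL and 26.8% in AAKO, not far below the shares of all genes. Against fed livers, 7 were called in CTRL, 5 higher and 2 lower, against 23.1% of all genes (10.5% higher, 12.7% lower), and 11 in AAKO, 5 higher and 6 lower, against 31.4% (15.5% higher, 15.9% lower). The fibrinogen genes and Serpinf2 made up 4 of the 5 higher calls in each genotype. The fifth was F11 in CTRL (0.3 ± 0.11, limma adjusted p = 0.0403) and Mbl1 in AAKO (0.41 ± 0.15, limma adjusted p = 0.0391). These calls were lost in 12 and 13 of 27 alternatives. In CTRL the lower calls were Cfp (-0.61 ± 0.23, limma adjusted p = 0.05 after rounding) and C2, lost in 16 and 13 of 27. In AAKO, Klkb1 and Serpind1 were both lower by 0.45, and Cfb by 0.32, a call lost in 7 of 27.

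Fasted and CL316243 livers come from 1 experiment. In CTRL 25 of the 41 genes were called, 3 higher and 22 lower in fasted livers, against 37.1% of all genes (17.8% higher, 19.3% lower). In AAKO 35 were called, 1 higher and 34 lower, against 60% (26% higher, 34% lower), and 29 did not overlap, beside 37.3% of all genes. The largest in AAKO were Mbl1 (-1.98), Fga (-1.85), C4b (-1.68), Klkb1 (-1.25), Serpinf2 (-1.23), C4bp (-1.15), Cpb2 (-1.06) and Serpind1 (-0.96), each with 6 of 6 fasted arrays below all agonist arrays on the brightest probe. On the dimmer Fga probe the difference was -1.11, and the AAKO fasted range of 4.61 to 6.28 overlapped the CL316243 range of 5.44 to 6.92. The largest in CTRL were F11 (-1.12), Klkb1 (-0.98), Pros1 (0.8), Serpinf2 (-0.74), C8a (-0.71), C4bp (-0.66), Serpind1 (-0.65) and Mbl2 (-0.63), with C4b next at the same rounded value. Pros1 was the gene raised in AAKO fasted livers, by 0.76 ± 0.15 (limma adjusted p = 3.69e-05).

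Taking group means, 24 of the 41 genes had their lowest level in AAKO fasted livers, beside 36.7% of all genes, and 14 had their highest in AAKO CL316243 livers, beside 16.5% of all genes. Kng2 and Kng1 were highest in AAKO CL316243 livers, and Pros1 was the 1 member highest in AAKO fasted livers.

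Other genes of the same pathways, from 2 lists that do not hold the 41, were called in both directions. Of 28 measured other complement genes, 4 were higher and 10 lower in fasted AAKO livers, and 2 higher and 4 lower after CL316243, where 49.2% and 24.5% of all genes were called. The share called was thus near that of all genes in both. The 3 largest in each direction in fasted livers were C1qb (1.13), C1qa (1.02) and Cd55 (0.68), and C5ar2 (-1.38), C4a (-1.2) and C1rl (-1.06). After CL316243, C5ar1 (1.02) and Cr2 (0.9) were higher, and Cd59a (-0.56), C1rl (-0.54) and Cd59b (-0.49) were the lowest. C1qa and C1qb encode chains of C1q, which starts the classical pathway and is made by macrophages.

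Of 28 other coagulation, fibrinolysis and kinin genes, 5 were higher and 9 lower in fasted AAKO livers, and 3 higher and 1 lower after CL316243. These counts are near the 49.2% of all genes in fasted livers and below the 24.5% after CL316243. In fasted livers Fgl2 (2.28), Thbd (2.07) and Plaur (1.8) were the highest, and Tfpi2 (-1.81), Plau (-0.78) and Ggcx (-0.57) the lowest. Thbd encodes thrombomodulin, the endothelial receptor on which thrombin activates protein C, Plaur the urokinase receptor, Tfpi2 a protease inhibitor, and Ggcx the vitamin K dependent carboxylase. After CL316243 Serpina10 (1.46), Plaur (1.08) and Thbd (0.94) were higher and Tfpi2 (-0.43) was lower. Serpina10 encodes an inhibitor of factor X.

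Neutrophil markers moved with the fasted genotype comparison. In AAKO fasted livers 5 of 8 were higher and 0 lower, against 22% and 27.2% of all genes, with a marker median of 2.16. Their array means ran from -3.65 to 1.37 in CTRL fasted and from -1.35 to 1.97 in AAKO fasted livers, and S100a8, a defining marker, from -3.68 to 4.1 and from 0.58 to 4.85. Endothelial markers were called higher for 2 of 7 in both the fasted and the CL316243 comparison, and Kupffer cell markers for 0 of 8. Beside these stand 22% and 12.9% of all genes called higher. The fasted endothelial count was near that share of all genes. Hepatocyte markers split evenly in fasted livers, with 4 of 10 higher and 4 lower in AAKO, and array means from 8.62 to 8.84 in CTRL and from 8.8 to 8.89 in AAKO. They did not split evenly after CL316243, with 4 of 10 higher and 0 lower in AAKO, against 12.9% and 11.6% of all genes. Their array means there ran from 8.32 to 8.56 in CTRL and from 8.58 to 8.76 in AAKO, without overlap. Between conditions, Kupffer cell markers were lower in fasted than in fed livers for 3 of 8 in CTRL, against 24% of all genes. In AAKO 5 were lower, against 36.1%. After CL316243 they were lower for 5 in CTRL and 7 in AAKO, against 12.7% and 15.9%. Their array means ran from 1.75 to 3.05 in CTRL fed and from 2.57 to 3.25 in AAKO fed livers, from 1.13 to 2.88 and 0.56 to 2.76 in fasted livers, and from 0.53 to 2.22 and 1.57 to 2.19 in CL316243 livers. Endothelial markers were lower after CL316243 than in fed livers for 6 of 7 in CTRL and 4 in AAKO, against 12.7% and 15.9%. Neutrophil markers were higher in fasted than in fed AAKO livers for 5 of 8 (median 2.34), against 27.5% of all genes. In CTRL 0 were higher, against 19.8%. Acute phase genes were lower in fasted than in CL316243 livers for 4 of 20 in CTRL and 15 in AAKO. The shares of all genes were 19.3% and 34%, the first near the CTRL count. The part of any of these cells or genes in the results above was not tested.

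A few arrays stood high or low across the members. CTRL fasted replicate 5 was the highest of its group for 31 of the 41 genes, CTRL CL316243 replicate 5 for 32, AAKO fed replicate 6 for 25 and CTRL fed replicate 6 for 22, and AAKO fasted replicate 3 was the lowest of its group for 30. The first 4 of these were also the arrays whose mean over the 20 acute phase genes lay more than 1 above their group mean, by 1.83, 1.31, 1.76 and 1.16.

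Over all 36 arrays, as deviations from the group mean, the mean of the 41 genes and that of the acute phase genes had a Pearson r of 0.86 and a Spearman rho of 0.79. Without the 2 arrays farthest from the median acute phase deviation r was 0.79, and within wash batches 1 and 2 it was 0.88 and 0.83. This is a description of arrays that share their scaling, and no test was made. Single members differed: r was 0.91 for Serping1 and Cpb2, 0.89 for Vtn and 0.88 for C3, but -0.13 for Klkb1, -0.42 for Proc, -0.47 for F13b and -0.49 for C8g. For 25 of the 41 genes r was above 0.5, as it was for 5.07% of all genes tested.

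**Figure D5:**
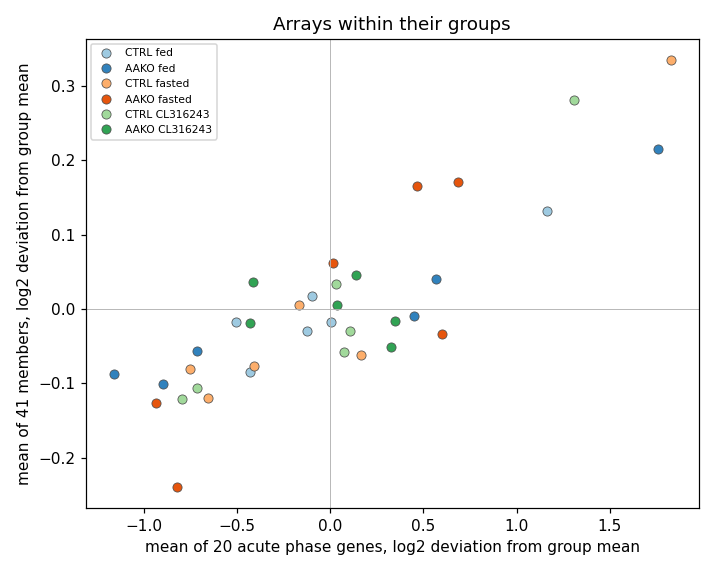
Mean log2 deviation from the group mean of the 41 genes (vertical axis) against that of 20 acute phase genes (horizontal axis), with 1 point per array and colours for the 6 groups. The 4 points to the right of 1 are CTRL fasted replicate 5, AAKO fed replicate 6, CTRL CL316243 replicate 5 and CTRL fed replicate 6.

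Without those 4 arrays, a fit chosen after the data were seen, the counts of called members were 2 in fed, 23 in fasted (8 higher, 15 lower) and 15 in CL316243 livers (12 higher, 3 lower) between genotypes. The change of the genotype difference with fasting was still called for 15 members, all lower. For CL316243 against fed livers in AAKO the count went from 11 to 17, with 10 higher and 7 lower. Of all genes, this fit called 0.0701%, 47.9% and 24.3% in the 3 genotype comparisons, 30.5% for the change with fasting and 31.9% for CL316243 against fed in AAKO. The called values followed kept their call in 93 of 97 cases and lost it in 4, which were F12 between fasted genotypes, F11 between genotypes after CL316243, and F11 and Cfp in CTRL between CL316243 and fed livers.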

How the data were processed

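RNA from 36 livers was hybridised to Agilent single-colour arrays (design 074809, mm9 probe coordinates). Per the file headers, the deposited files hold probe intensity from Feature Extraction version 10.10.1.1, already background-subtracted (processed signal). The authors also deposited processed values on a log2 scale; the 6 columns of each group there hold identical sorted values, and these were used as an alternative only. Control spots and 2701 outlier spots (0.127%) were left out, and no non-control spot was saturated. Between 58.5% and 65.7% of probes were well above background per array, and the number of arrays limits the precision.

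From the intensity, log2 values were taken minus the 75th percentile of each array. Genes were kept where 5 or more of the 6 arrays of any group had the probe well above background. Group means and the wash batch (2 batches, from the sample labels) were fitted over all 36 arrays with limma 3.58.1 in R 4.3.3 (data.table package, version 1.17.8). Benjamini-Hochberg adjustment was over 24251 genes, with a threshold of 0.05. The fit was tested on simulated data. Alternatives were the background correction (normexp, offset 50), the scaling, the filter, the probe rule, the samples fitted, slide (8 slides), wash batch, the replicate number as a block, and leaving out each array.

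The members and lists were chosen with earlier results of these data known. Members were named with values where called with an absolute log2 fold change of at least 0.5 between genotypes, or among the 8 largest calls of another comparison; small role groups were named in full, as were the 3 largest calls of each other list per direction. Replicate numbers did not pair the samples.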

Additional observations from a re-analysis of the deposited data

Results flagged for a closer look

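The genotype difference changed between conditions by a direct test of the change in limma. From fed to fasted livers it changed for 15 members, and the 8 largest changes were Mbl1 -1.39, C4b -1.30, Klkb1 -0.83, C4bp -0.71, Serpind1 -0.62, Cfb -0.56, C8g -0.56 and C3 -0.51. From fed to CL316243 livers it changed for 1 member, Fga, by 1.14. From CL316243 to fasted livers it changed for 13 members, led by Mbl1 -1.44, Fga -1.35, C4b -1.05, Cpb2 -0.64, Serpinf2 -0.49, Masp2 -0.49, C3 -0.47 and C8g -0.46. In this order the counts were 36.6%, 2.44% and 31.7% of the members, beside 33.6%, 10.8% and 31.8% of all genes. The counts of 15 and 13 were thus near the shares of all genes. The Cpb2 change was lost in 24 of 39 alternatives. The Fga change between fasted and CL316243 livers was lost within wash batch 2 (-0.86) and with the mean of probes (-0.81), and the dimmer Fga probe alone gave -0.27 ± 0.54.

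Single arrays also stood apart within their group of 6, with a gap to the nearest array above Dixon's critical value. This held for 27 of 246 groups of 6 values, where chance flags about 1 in 20, or 12.3 groups. CTRL CL316243 replicate 5 was the outlying array for Mbl1 (5.19), Cfi (8.23), C4bp (7.86), F2 (9.29), Serpinf2 (8.51), Cpb2 (8) and Vtn (9.44). CTRL fasted replicate 5 was so for C3 (10.68), C4bp (7.2), Serping1 (8.33), Fga (7.41), Cpb2 (7.89), Hrg (7.92) and Vtn (9.33). CTRL fed replicate 6 was so for C8a (6.7), Serping1 (8.03), Pros1 (5.6), Serpinf2 (7.91) and Cpb2 (7.83), and AAKO fed replicate 6 for C8b (7.33) and Kng2 (7.83). These are the 4 arrays with raised acute phase genes, whose part in the values was not tested.

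The other outlying values were C1ra at 6.14 in CTRL fed replicate 4, C6 at 3.13 in CTRL fed replicate 1, C2 at 6.13 in AAKO fasted replicate 3, F13b at 4.05 in AAKO fasted replicate 2, and Cfp at 2.4 in AAKO fasted replicate 6 and 3.49 in AAKO CL316243 replicate 6.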

How the results depend on the processing

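Over 97 called values of named members, 2823 alternative values were computed, of which 2610 kept the call, 213 lost it and 0 reversed. The counts of called members were moved most by splitting the wash batches, which leaves fewer arrays. Within wash batches 1 and 2 the counts were 0 and 0 for the fed genotype comparison (2 in the fit reported), 5 and 2 after CL316243 (10), 6 and 3 for CL316243 against fed in AAKO (11), 4 and 1 for the same in CTRL (7), 14 and 15 for fasted against CL316243 in CTRL (25), 8 and 2 for the change of the genotype difference between CL316243 and fasted livers (13), and 0 and 0 for its change between fed and CL316243 livers (1). Within wash batch 2 they were 11 for the fasted genotype comparison (21) and 1 for its change from fed (15). The shares of all genes called fell as well. In the same order they were 0.00412% and 0% (0.0783%), 12.3% and 6.23% (24.5%), 19.3% and 9.43% (31.4%), and 8.66% and 6.69% (23.1%). The next were 18.8% and 24.9% (37.1%), 19.6% and 12.6% (31.8%), and 1.89% and 1.98% (10.8%). For the last 2 counts, within wash batch 2, they were 32.3% (49.2%) and 12.9% (33.6%). The fed genotype count was 1 with only the groups compared and 1 with slide as a fixed factor. With no filter on dim probes, CL316243 against fed in CTRL gave 4. The count of 1 for the genotype by CL316243 change became 2 with normexp, 3 with the authors' table, 4 with only the groups compared, 0 with the mean of probes and 3 without the 4 arrays high in acute phase genes. Without those arrays CL316243 against fed in AAKO gave 17.

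Leaving out 1 array gave 1 to 2 called members for the fed, 19 to 22 for the fasted and 6 to 11 for the CL316243 genotype comparison (6 without CTRL CL316243 replicate 4). Fasted against fed gave 19 to 26 in CTRL and 30 to 33 in AAKO, CL316243 against fed 3 to 7 in CTRL (3 without CTRL fed replicate 1) and 8 to 11 in AAKO, and fasted against CL316243 21 to 30 in CTRL and 32 to 37 in AAKO. The changes of the genotype difference gave 14 to 17 (fasting), 1 to 3 (CL316243) and 9 to 16 (fasted against CL316243).

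Values that were not called changed sign as follows, and the cause was not tested. The fasted genotype difference became 0.22 (wash batch 2), 0.45 (mean of probes), 0.02 (without CTRL fasted replicate 5) and 0.01 (without the 4 arrays) for Fga, leaving out 1 array giving -0.26 to 0.02, and within wash batch 1 -0.02 for Fgb and -0.09 for Fgg. The genotype by CL316243 change of Kng1 became 0.09 (wash batch 2), 0.01 (slide as a fixed factor), 0 (mean of probes), 0.04 (without CTRL CL316243 replicate 5) and 0.03 (without the 4 arrays). The Kng1 change with fasting became 0.01 with the authors' table, and that between fasted and CL316243 livers 0.06 with the authors' table and 0.04 with quantile normalization. For Kng2 these became 0.17 and 0.06 within wash batch 2.

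The split of calls moved with the scaling: after CL316243 the genotype calls were 7 higher and 7 lower with the authors' table and 6 and 5 with quantile normalization, and CL316243 against fed in CTRL gave 7 and 1, and 7 and 0. The fasted against CL316243 change gave 3 and 8, 3 and 9, and, with median scaling, 2 and 9. The authors' table moved the median of all genes by 0.11 for fasted against fed and 0.13 for fasted against CL316243 livers in AAKO.

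With the replicate number as a block all 97 calls were kept, with 2, 21 and 10 members called between fed, fasted and CL316243 genotypes. Of 90 pairs of arrays sharing a number, 16 had deviations correlated above 0.1, from -0.3 to 0.36, and 6 of 36 arrays were closest to their own number.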
